A study of Mus musculus with 40 samples.

Results

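RNA of naive CD4 T cells, cells that have not yet met antigen, was compared between Setdb1 knockout (KO) and wild-type (WT) mice of the C57BL/6 background. The members were the 7 libraries whose labels name naive cells: 4 from Setdb1+/+ mice and 3 from Setdb1-/- mice, out of 18 RNA libraries and 40 samples in the series. The cells were CD4+ T cells of the spleen taken at day 0, before any culture. The other RNA libraries came from the same genotypes after culture: 6 from T helper 2 (Th2) cells activated with antibodies to CD3 and CD28 and grown with IL-4, and 5 from Th2 cells then moved to medium with IL-12 (Th2-Th1 cells). What drove the deletion, the age of the mice and whether replicates came from separate mice are not stated in the labels. A p-value therefore reflects only how far libraries of a group scattered. Gene levels are given as the authors deposited them, as read counts normalised by a library-specific size factor and not scaled by gene length.

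SETDB1 is a histone methyltransferase that places H3K9me3, a mark of silenced chromatin. KRAB zinc finger proteins and their partner TRIM28 bring it to DNA, and the cofactor ATF7IP keeps it stable in the nucleus. In many cell types it is known for keeping endogenous retroviruses, germline genes and other genes foreign to the cell type silent. SUV39H1 places the same mark, mostly at heterochromatin near centromeres.

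Total reads per naive library ran from 10.019 to 18.511 M. The labelled cell type was checked against its markers. Cd4 was between 13300 and 17230 in all 7 libraries, while Cd8a stayed between 6.24 and 38.4. Cd8b1, a second CD8 marker, was higher than Cd8a, at 404.1 to 539.6 in WT and 493.1 to 528.5 in KO. The summed level of 8 naive CD4 T cell markers was 79480 to 93280 in WT and 75140 to 78120 in KO. A set of 3 libraries had reads on many more genes than the rest. At an equal depth of 10019187 reads, WT replicates 1 and 3 and KO replicate 2 had 21241, 25556 and 22226 genes detected, against 15115 and 16229 in WT replicates 2 and 4 and 18589 and 15860 in KO replicates 1 and 3. Much of the surplus lay in genes with 1 to 4 reads: 6153, 7371 and 7197 in those 3 libraries against 2000 to 4854 in the others. Olfactory and vomeronasal receptor genes, which T cells are not known to use, had a read in 414, 681 and 426 of 1580 cases in those 3 libraries. The same count was 9 and 18 in WT replicates 2 and 4 and 146 and 14 in KO replicates 1 and 3. The 3 libraries shared 1410 genes that had reads in each of them and in none of the other 4. Because the 3 libraries are found in both genotypes, each result was also computed without them, which left 2 libraries per genotype.

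**Figure D1:**
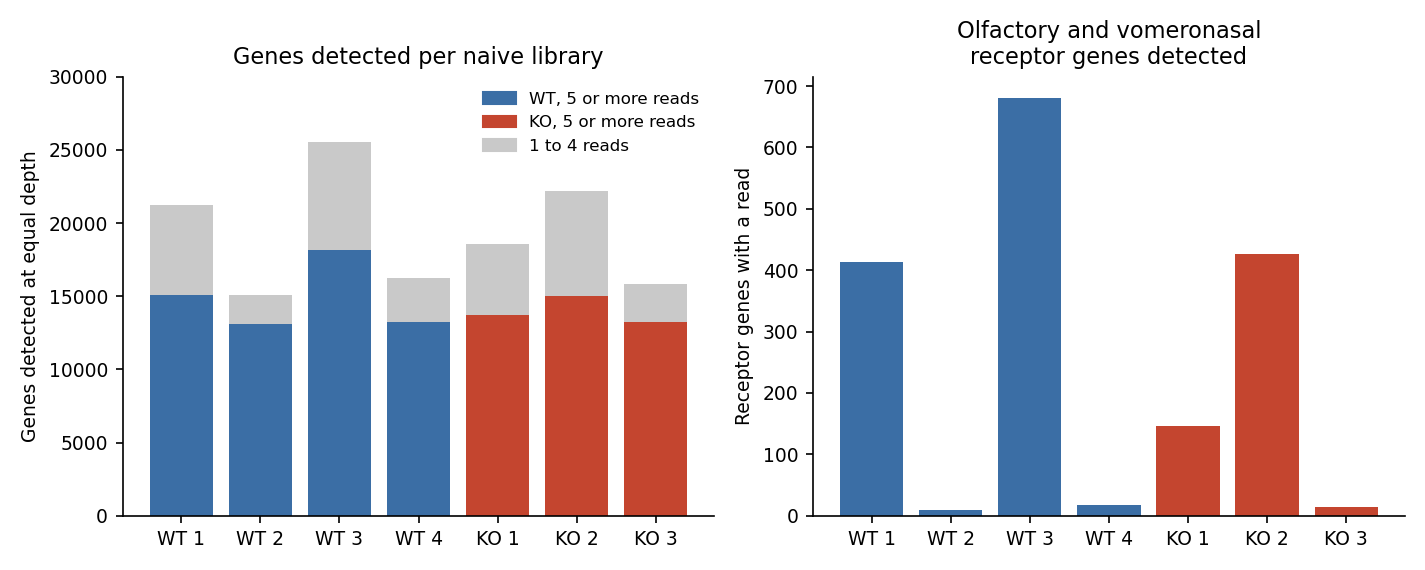
Left, the number of genes detected in each naive library after thinning to 10019187 reads, with genes of 1 to 4 reads in grey and of 5 or more reads in colour. Right, the number of olfactory and vomeronasal receptor genes with a read, out of 1580. WT replicates 1 and 3 and KO replicate 2 stand above the other libraries in both panels, with 414, 681 and 426 receptor genes against 9 to 146.

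Setdb1 itself (chr3:95323525-95357202) had values of 1336, 1366, 1325 and 1214 in WT replicates 1 to 4 and 1103, 933 and 984 in KO replicates 1 to 3. Every KO library lay below every WT library, but the log2 difference of -0.38 ± 0.11 (limma, adjusted p = 0.0647) did not pass the threshold of 0.05. Reads of all exons are summed in this value. Whether a loss was restricted to some exons was not tested. Suv39h1 was 525, 725, 532 and 671 in WT replicates 1 to 4 and 569, 516 and 663 in KO replicates 1 to 3, with overlapping groups and a log2 difference of -0.07 ± 0.16 (limma, adjusted p = 0.878).

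Testing covered 15033 genes, those that reached 10 in 2 or more naive libraries, and 1028 (6.84%) were called at an adjusted p under 0.05 by limma. Of these, 715 (4.76%) were higher in KO and 313 (2.08%) were lower. These shares are the base for the counts of each gene list below. Large differences were mostly rises: 362 genes rose and 79 fell by at least 2-fold. In 681 of the 715 and 302 of the 313 the groups did not overlap, a pattern that 10.8% of all genes tested showed with KO above WT and 7.78% with KO below. The count depended on single libraries. It was 585 without KO replicate 1, 425 without KO replicate 2, 1979 without KO replicate 3 and 626 without WT replicate 1, and 372 genes were called whichever library was left out. Without the 3 libraries that had many genes detected, 178 of 13208 genes (1.35%) were called, 155 higher (1.17%) and 23 lower (0.174%). Of these 176 were among the 1028, and all 1028 kept their direction. With the 11 cultured libraries added to estimate the spread, 1941 genes (12.9%) were called, 1317 higher (8.76%) and 624 lower (4.15%). With them added and the same 3 naive libraries left out, a setting added once the data had been seen, the count was 890 (6.74%), with 694 higher (5.25%) and 196 lower (1.48%). By edgeR's quasi-likelihood test 955 genes (6.35%) were called, 659 higher (4.38%) and 296 lower (1.97%).

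The 15 largest rises, taken from called genes whose mean reached 50 and whose groups did not overlap, joined genes that are normally silent in T cells with genes of dividing cells. All 15 were also called without the 3 libraries with many genes detected, and by edgeR's quasi-likelihood test. Tdrd9, a helicase of the piRNA pathway that silences transposons in male germ cells, lay at chr12:111971488-112068854 and had no reads in any of the 4 WT libraries and values of 563.7, 328.9 and 314.1 in KO replicates 1 to 3. Against a floor of 3 reads per library, a mean value of 4.03, it was at least 99.8-fold higher in KO. Cacna1b (chr2:24603860-24763200), the pore subunit of the N-type calcium channel of neurons, was 14.97, 0, 19.9 and 0.945 in WT replicates 1 to 4 and 1167, 1170 and 887 in KO replicates 1 to 3. The KO libraries were far above the WT libraries, and the log2 difference, here and below on the scale of log2(value + 1), was 7.72 ± 0.86 (limma, adjusted p = 0.000152). Tubb3, the beta-tubulin that marks neurons, was 4.99, 12.3, 3.62 and 11.3 in WT replicates 1 to 4 and 792, 806 and 506 in KO replicates 1 to 3. Its groups were also far apart, with a log2 difference of 6.39 ± 0.42 (limma, adjusted p = 2.45e-06).

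Several of these rises were in genes of signalling and transcription. Snai3, a zinc finger repressor of the Snail family, was 1.25, 0, 3.62 and 0.945 in WT replicates 1 to 4 and 179.6, 81.9 and 98.6 in KO replicates 1 to 3, a log2 difference of 5.75 ± 0.74 (limma, adjusted p = 0.000464). KO replicate 1 was its highest library. Kit, the receptor of stem cell factor found on progenitors and mast cells, was 11.2, 0, 16.3 and 4.72 in WT replicates 1 to 4 and 102, 137 and 183 in KO replicates 1 to 3, a difference of 4.55 ± 0.82 (limma, adjusted p = 0.00501). Osgin1, a growth inhibitor induced by oxidative stress, was 11.2, 0, 10.9 and 6.61 in WT replicates 1 to 4 and 389, 157 and 69.9 in KO replicates 1 to 3. Its KO libraries spread widely, yet all lay above WT, with a log2 difference of 4.83 ± 0.85 (limma, adjusted p = 0.00439). Genes of division made up much of the rest. Mki67, a marker of cycling cells, was 88.6, 129, 281 and 99.2 in WT replicates 1 to 4 and 3253, 3933 and 2931 in KO replicates 1 to 3, and Shcbp1, a protein of the dividing cell's midbody, was 13.7, 0, 14.5 and 0.945 in WT replicates 1 to 4 and 110.3, 115 and 133 in KO replicates 1 to 3. The replication factor Mcm10, the cohesin acetyltransferase Esco2, the motor Kif4, the checkpoint adaptor Clspn and the spindle checkpoint kinase Bub1 had log2 differences from 4.38 to 5.01, and the call of Bub1 was lost without KO replicate 2 (adjusted p = 0.0565).

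**Figure D2:**
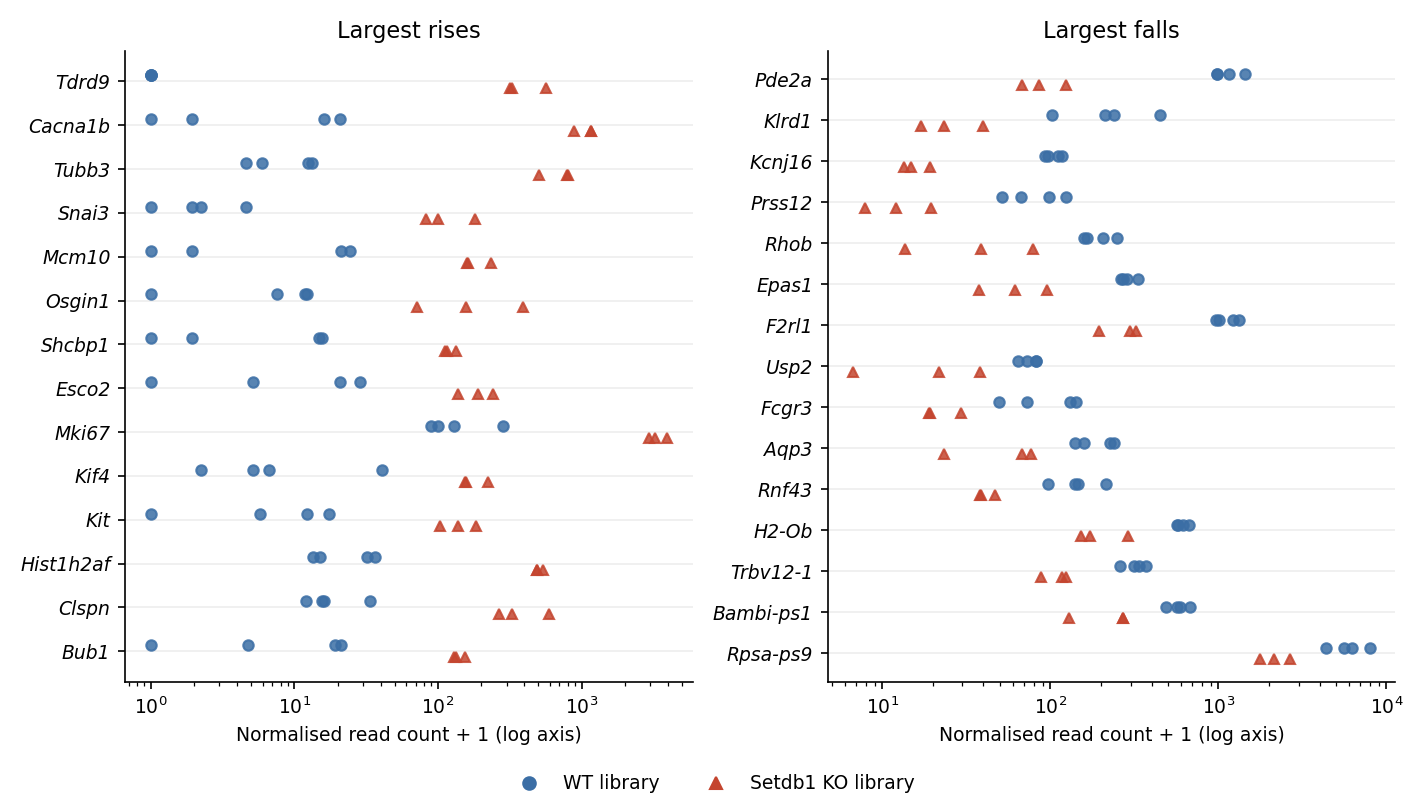
Normalised read count plus 1 (log axis) of 14 of the 15 genes with the largest rise and the 15 with the largest fall, 1 point per naive library, circles for WT and triangles for KO. In every row the groups do not overlap, and Tdrd9 sits at 1 (no reads) in all 4 WT libraries.

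Beyond the single genes, few members of the lists of genes foreign to T cells were called. The shares called higher were 11.1% of germline, 8.33% of neuronal and 15.4% of muscle genes, against 4.76% of all genes tested. Each of these shares is 2 genes. Of 18 germline and piRNA genes tested 2 rose, Tdrd9 and Stag3, and 0 fell (limma; 3 and 0 at an unadjusted p under 0.05, and 2 and 0 by edgeR). Stag3, a cohesin subunit of meiosis, was 17.5, 28.8, 41.6 and 4.72 in WT replicates 1 to 4 and 242, 336 and 322 in KO replicates 1 to 3, a log2 difference of 3.96 ± 0.55 (limma, adjusted p = 0.000795). Of 24 neuronal genes 2 rose, Cacna1b and Tubb3, and the median difference of the list was -0.44. Many of its other members, among them Nefl and Syt1, had values above 10 only in libraries with many genes detected. Among 13 muscle genes 2 rose. Neb, the giant thin filament protein nebulin of skeletal muscle, was 124, 193, 244 and 157 in WT replicates 1 to 4 and 2013, 1659 and 1250 in KO replicates 1 to 3, all KO libraries far above WT (log2 3.20 ± 0.23 (limma, adjusted p = 3.56e-06)). Tnnt1, slow skeletal troponin T, was 173, 129, 125 and 100.1 in WT and 273, 228 and 281 in KO, a smaller difference of 1.00 ± 0.22 (limma, adjusted p = 0.0157) that was lost without KO replicate 1 (adjusted p = 0.0653). A vomeronasal receptor gene also rose: Vmn2r96, whose product serves pheromone sensing, was 36.2, 91.8, 48.9 and 35.9 in WT replicates 1 to 4 and 571, 736 and 722 in KO replicates 1 to 3, a log2 difference of 3.74 ± 0.30 (limma, adjusted p = 1.01e-05). Of 14 imprinted genes 1 was called, Igf2r, the receptor that clears IGF2, at 0.44 ± 0.12 (limma, adjusted p = 0.0434), and edgeR called none. No Hox gene (4 tested), no clustered protocadherin (3 tested) and no collagen (30 tested) was called by limma or edgeR, and at an unadjusted p under 0.05 there were 1, 1 and 0.

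The promoters of Stag3 and Tdrd9 are shown because H3K9me3 of WT cells lay on or beside them. The windows run from 250 bases before to 50 bases after the start given by RefSeq (GRCm38.p6), with CG pairs in capitals. Stag3 (chr5:138280259-138280558, plus strand) had 30 CG pairs, a number that 22.4% of 10173 windows reached, and lay inside a WT H3K9me3 region from 138280251 to 138281350. The nearest KO region was 173993 bp away. Tdrd9 (chr12:111971309-111971608, plus strand) had 10 CG pairs and lay 1293 bp from a WT region, and the nearest KO region was 468209 bp away.
Stag3: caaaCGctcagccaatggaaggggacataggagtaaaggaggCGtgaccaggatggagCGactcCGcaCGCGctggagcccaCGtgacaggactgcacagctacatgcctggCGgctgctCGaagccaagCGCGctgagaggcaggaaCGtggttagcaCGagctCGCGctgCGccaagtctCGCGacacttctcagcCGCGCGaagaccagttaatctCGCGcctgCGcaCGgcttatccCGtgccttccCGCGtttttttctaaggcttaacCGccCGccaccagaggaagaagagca
Tdrd9: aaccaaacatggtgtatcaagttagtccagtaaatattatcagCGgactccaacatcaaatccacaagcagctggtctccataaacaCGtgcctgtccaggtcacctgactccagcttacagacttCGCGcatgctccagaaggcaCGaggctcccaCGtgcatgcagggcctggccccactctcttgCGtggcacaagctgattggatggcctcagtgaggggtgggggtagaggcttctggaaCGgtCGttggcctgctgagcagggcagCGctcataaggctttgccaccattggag

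The 15 largest falls held receptors, enzymes and channels, and none was in the cell cycle, repair or histone lists. Pde2a, a phosphodiesterase that breaks down cyclic AMP and cyclic GMP, was 1441, 1158, 974 and 978 in WT replicates 1 to 4 and 123, 84.7 and 66.5 in KO replicates 1 to 3. Every KO library was far below WT, with a log2 difference of -3.65 ± 0.21 (limma, adjusted p = 8.35e-07). Epas1, which encodes the hypoxia factor HIF-2 alpha, was 332, 269.9, 284 and 263 in WT replicates 1 to 4 and 60.7, 94.4 and 36.7 in KO replicates 1 to 3, a difference of -2.25 ± 0.28 (limma, adjusted p = 0.000406). H2-Ob, whose protein restrains peptide loading on MHC class II, was 671, 563, 572 and 616 in WT replicates 1 to 4 and 287, 171 and 150.2 in KO replicates 1 to 3. The groups were well apart, with a difference of -1.63 ± 0.21 (limma, adjusted p = 0.000425). Kcnj16, an inward rectifier potassium channel, was 116, 109.6, 95.96 and 92.6 in WT replicates 1 to 4 and 12.4, 13.9 and 18.3 in KO replicates 1 to 3, a difference of -2.73 ± 0.33 (limma, adjusted p = 0.000321). The small GTPase Rhob was 249.5, 204, 165 and 158 in WT replicates 1 to 4 and 78.05, 37.5 and 12.6 in KO replicates 1 to 3, at -2.47 ± 0.46 (limma, adjusted p = 0.0062) on the log2 scale. F2rl1, a receptor cut by proteases, Aqp3, a channel for water and glycerol, Rnf43, a ubiquitin ligase that removes Wnt receptors, and Prss12, a serine protease, fell by 1.81 to 2.71 on the log2 scale. Without the 3 libraries with many genes detected 7 of the 15 were called: Pde2a, Klrd1, Kcnj16, Epas1, F2rl1, Rnf43 and Trbv12-1. The call of Usp2, a deubiquitinase, was lost without KO replicate 2 or any WT library (adjusted p up to 0.08), and that of Fcgr3, an activating IgG receptor, without KO replicate 2 (adjusted p = 0.0526). Bambi-ps1 and Rpsa-ps9 are pseudogenes, and their reads may be shared with other loci.

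Of the 3 tested markers of natural killer (NK) cells, Klrd1 and Eomes fell. Klrd1 encodes CD94, a lectin receptor of NK and cytotoxic T cells, and was 238, 447, 212 and 101 in WT replicates 1 to 4 and 22.3, 38.9 and 16.1 in KO replicates 1 to 3, a log2 difference of -3.13 ± 0.44 (limma, adjusted p = 0.00093). Eomes, a T-box factor of NK and memory cells, was 62.4, 86.3, 85.1 and 66.1 in WT replicates 1 to 4 and 14.9, 5.55 and 16.1 in KO replicates 1 to 3, a difference of -2.64 ± 0.44 (limma, adjusted p = 0.00313). The perforin gene Prf1 was 669, 926, 556 and 654 in WT and 261, 476 and 394 in KO and its difference of -0.91 ± 0.21 (limma, adjusted p = 0.0227) was lost without KO replicate 1 or WT replicate 1 or 2 (adjusted p up to 0.0963). Fasl, the death ligand, was 452, 375, 339 and 423 in WT and 136, 201 and 116 in KO, a difference of -1.42 ± 0.21 (limma, adjusted p = 0.00124). Ctsw, a cathepsin of cytotoxic cells, went the other way: it was 464, 560.3, 563 and 642 in WT and 1157, 1366 and 1253 in KO, a difference of 1.18 ± 0.14 (limma, adjusted p = 0.000238). The summed level of 6 NK markers was 167.2 to 539.8 in WT and 36.7 to 50.8 in KO, while that of 10 B cell markers was 60.5 to 525 and 65.4 to 486.9, and of 9 myeloid markers 150.7 to 340.5 and 127.3 to 163.5. Most of the NK sum came from Klrd1 and Eomes, already given above. The NK-defining receptor Ncr1 was between 0 and 10.9 in all libraries. Klrb1c, another of the NK markers and close to 0 reads, went the other way, with 0 to 1.25 in WT and 1.39 to 4.59 in KO. In bulk RNA, fewer cells of a type and less RNA per cell cannot be told apart, and the part of other cells in these falls was not tested.

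Among genes of H3K9 methylation and heterochromatin 9 of 32 rose (28.1%, against 4.76% of all genes tested) and 0 fell (limma; 12 and 1 at an unadjusted p under 0.05, and 9 and 0 by edgeR). The largest belonged to chromatin assembly behind the replication fork: Chaf1a, a subunit of chromatin assembly factor 1, was 17.5, 10.96, 28.97 and 8.503 in WT replicates 1 to 4 and 136, 211 and 275 in KO replicates 1 to 3, a log2 difference of 3.66 ± 0.44 (limma, adjusted p = 0.000306). Uhrf1, which reads H3K9 methylation and brings in the maintenance DNA methyltransferase, was 73.6, 86.3, 63.4 and 64.2 in WT replicates 1 to 4 and 467, 594 and 899 in KO replicates 1 to 3, a difference of 3.12 ± 0.24 (limma, adjusted p = 6.16e-06). Atf7ip, the cofactor of SETDB1, was 2023, 2808, 2129 and 2828 in WT replicates 1 to 4 and 10552, 10848 and 8530 in KO replicates 1 to 3. The KO mean was 4.08 times the WT mean, with a log2 difference of 2.04 ± 0.14 (limma, adjusted p = 3.58e-06). A second entry of the table with the symbol Atf7ip was also called (2.37 on the log2 scale, limma, adjusted p = 5.9e-06). Morc2a, an ATPase that works with the HUSH silencing complex, was 1342, 1189, 1075 and 1398 in WT replicates 1 to 4 and 2541, 2240 and 2115 in KO replicates 1 to 3, a difference of 0.88 ± 0.13 (limma, adjusted p = 0.00101). The other members called were Chaf1b, Hells, Dnmt3b, Dnmt3a and Cbx5, at 0.51 to 1.45. Trim28, Mphosph8, Ehmt1, Ehmt2 and Setdb2, named here after their values were seen, had log2 differences between -0.10 and 0.09 that did not pass. Of the 32, 4 were called without the 3 libraries with many genes detected, all higher.

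Interferon-stimulated genes rose in part, and unevenly across the KO libraries. Of 35 such genes 14 rose and 0 fell (limma; 25 and 0 at an unadjusted p under 0.05, and 14 and 0 by edgeR), with a median log2 difference of 0.86 against 0.00 over all genes tested. Rsad2, the antiviral enzyme viperin, was 116, 186, 212 and 185 in WT replicates 1 to 4 and 282, 723 and 1407 in KO replicates 1 to 3. It rose by 1.95 ± 0.40 (limma, adjusted p = 0.0112), and the call was lost without KO replicate 2 (adjusted p = 0.06). Oas3, which makes the messenger that activates RNase L, was 163, 314, 337 and 286 in WT replicates 1 to 4 and 589.7, 1102 and 1115 in KO replicates 1 to 3, a difference of 1.76 ± 0.27 (limma, adjusted p = 0.00165). Isg15, a ubiquitin-like protein, was 139.7, 273, 167 and 134 in WT replicates 1 to 4 and 289.9, 558 and 737 in KO replicates 1 to 3. Its lowest KO library barely cleared the highest WT library, and its difference of 1.52 ± 0.31 (limma, adjusted p = 0.01) was lost without KO replicate 2 (adjusted p = 0.0601). Zbp1, a sensor of Z-form nucleic acids, was 753, 1543, 1371 and 1214 in WT replicates 1 to 4 and 2863, 3110 and 2903 in KO replicates 1 to 3, with a steadier difference of 1.33 ± 0.19 (limma, adjusted p = 0.00126). The other 10 called had log2 differences from 0.5 to 1.5. In all 14 genes KO replicate 1 was the lowest KO library, which held for 33.1% of all genes called higher, and KO replicate 3 was the highest in 11. WT replicate 1 was the lowest WT library in 11. Of the list 25 were called higher without KO replicate 1, 5 without KO replicate 2, 8 without WT replicate 1 and 9 without WT replicate 4. Leaving out the 3 libraries with many genes detected left 1 call, or 5 with the cultured libraries kept for the spread.

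Sensors of nucleic acids and interferon-inducible GTPases also rose in part. In the list of sensing and restriction genes 6 of 21 rose and 0 fell (limma; 9 and 1 at an unadjusted p under 0.05, and 3 and 0 by edgeR). The count was 3 without KO replicate 2 or WT replicate 1, 3 or 4, and 9 without KO replicate 3, with 1 lower. Tlr7, the endosomal receptor of single-stranded RNA, was 244, 363, 257 and 216 in WT replicates 1 to 4 and 649, 860.5 and 899 in KO replicates 1 to 3, a log2 difference of 1.58 ± 0.19 (limma, adjusted p = 0.000321). Mov10, a helicase that restricts retroelements, was 312, 292, 422 and 291 in WT replicates 1 to 4 and 729.7, 762 and 843 in KO replicates 1 to 3, a difference of 1.25 ± 0.16 (limma, adjusted p = 0.00047). Trim25, Apobec3, Tmem173 (STING) and Adar, which edits double-stranded RNA, rose by 0.50 to 0.85. Of 23 GTPases and Schlafens 8 rose and 1 fell. Gbp5, a guanylate-binding protein of inflammasome defence, was 353, 448, 474 and 425 in WT replicates 1 to 4 and 1140, 1270 and 1536 in KO replicates 1 to 3, a difference of 1.62 ± 0.15 (limma, adjusted p = 2.93e-05). Iigp1, an immunity-related GTPase, was 1098, 2637, 2057 and 1114 in WT replicates 1 to 4 and 3335, 4015 and 6339 in KO replicates 1 to 3, with 1.45 ± 0.29 (limma, adjusted p = 0.00904) on the log2 scale. The exception was Slfn2, a Schlafen that keeps T cells quiescent, which was 21607, 21112, 23427 and 19078 in WT replicates 1 to 4 and 8084, 10730 and 15100 in KO replicates 1 to 3 and fell, with a difference of -0.96 ± 0.17 (limma, adjusted p = 0.00512). Without KO replicate 2 or WT replicate 1, 3 of the GTPase list were called higher, and without KO replicate 1, 13. With the 3 libraries of many genes detected left out, 1 of the sensing genes and 2 of the GTPases and Schlafens were called, all higher.

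The promoters of these lists often held the core of the interferon-stimulated response element, searched as GAAA, any 2 bases and GAAA again, on both strands. It was found in 330 of 10173 windows of all genes tested (3.24%) and in 27 of 59 windows of the 3 interferon lists (45.8%). Within these lists it was in 12 of 21 genes called higher and in 15 of 37 not called. Among genes called higher outside the interferon and cell cycle lists it was in 18 of 452 (3.98%). A match is a description of the letters and not a measured site. The windows of 3 genes called higher are shown with the match in capitals, the Isg15 window (chr4:156200769-156201068, minus strand) holding 3 overlapping matches, and those of Rsad2 (chr12:26456403-26456702, minus strand) and Gbp5 (chr3:142594597-142594896, plus strand) 1 each. None of them held a WT or KO H3K9me3 region, the nearest WT region being 38969, 373103 and 53297 bp away.
Isg15: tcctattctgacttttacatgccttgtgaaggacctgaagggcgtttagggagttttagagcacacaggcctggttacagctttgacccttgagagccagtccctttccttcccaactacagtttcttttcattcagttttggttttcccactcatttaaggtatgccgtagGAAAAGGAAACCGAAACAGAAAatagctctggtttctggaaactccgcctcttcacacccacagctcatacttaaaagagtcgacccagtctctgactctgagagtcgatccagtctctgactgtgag
Rsad2: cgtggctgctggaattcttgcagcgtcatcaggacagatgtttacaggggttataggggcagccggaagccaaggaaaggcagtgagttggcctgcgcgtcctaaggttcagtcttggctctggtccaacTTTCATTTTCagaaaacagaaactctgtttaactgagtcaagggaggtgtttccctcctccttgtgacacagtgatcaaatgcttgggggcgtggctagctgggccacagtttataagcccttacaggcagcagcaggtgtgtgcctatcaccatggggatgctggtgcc
Gbp5: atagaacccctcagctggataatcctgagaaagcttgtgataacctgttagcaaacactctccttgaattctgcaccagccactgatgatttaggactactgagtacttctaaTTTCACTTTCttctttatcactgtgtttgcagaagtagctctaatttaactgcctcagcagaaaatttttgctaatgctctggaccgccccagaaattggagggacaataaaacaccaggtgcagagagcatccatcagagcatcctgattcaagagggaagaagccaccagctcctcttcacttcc

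Regulatory T cell genes rose in part. Of 15 tested 6 rose (40.0%, against 4.76% of all genes tested) and 0 fell (limma; 10 and 0 at an unadjusted p under 0.05, and 6 and 0 by edgeR), with a median log2 difference of 1.08. Nrp1, a coreceptor that marks thymus-derived regulatory T cells, was 49.9, 38.4, 83.3 and 40.6 in WT replicates 1 to 4 and 683, 699.5 and 613 in KO replicates 1 to 3. The groups were far apart, at 3.69 ± 0.26 (limma, adjusted p = 3.59e-06) on the log2 scale. Foxp3, the factor that defines regulatory T cells, was 32.4, 21.9, 66.99 and 32.1 in WT replicates 1 to 4 and 194, 187 and 157 in KO replicates 1 to 3, a difference of 2.31 ± 0.36 (limma, adjusted p = 0.00182). Il2ra, the high-affinity IL-2 receptor chain CD25, was 32.4, 15.1, 34.4 and 23.6 in WT replicates 1 to 4 and 174, 159.6 and 139 in KO replicates 1 to 3, with 2.59 ± 0.35 (limma, adjusted p = 0.000691). Ikzf4, the Ikaros family factor Eos, was 71.1, 89.05, 88.7 and 109 in WT replicates 1 to 4 and 492, 376 and 292 in KO replicates 1 to 3, with 2.08 ± 0.23 (limma, adjusted p = 0.000152). Capg, an actin-capping protein, and Ikzf2, which encodes Helios, rose by 1.08 and 1.05, and the call of Ikzf2 was lost without KO replicate 1 or 2 (adjusted p up to 0.0942). Of the 15, 5 were called without the 3 libraries with many genes detected, all higher. In 5 of the 6 genes KO replicate 3 was the lowest KO library, which held for 50.9% of all genes called higher. Whether few cells or many carried these transcripts was not measured.

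Genes of T cell activation rose in part, and few of those of the naive state were called. Of 17 activation genes 5 rose and 0 fell (limma; 8 and 1 at an unadjusted p under 0.05, and 5 and 0 by edgeR). Without the 3 libraries with many genes detected 2 were called higher and 0 lower. Il2rb, the IL-2 receptor chain shared with IL-15, was 108, 158, 152 and 71.8 in WT replicates 1 to 4 and 601, 468 and 574 in KO replicates 1 to 3, a difference of 2.21 ± 0.26 (limma, adjusted p = 0.000231). Tnfrsf4, the costimulatory receptor OX40, was 203, 263, 273 and 219 in WT replicates 1 to 4 and 558, 584 and 784 in KO replicates 1 to 3, with 1.41 ± 0.18 (limma, adjusted p = 0.000388). Nr4a3, induced by T cell receptor signals, and its companion Irf4 were less even: Nr4a3 was 169.6, 244, 177 and 170.1 in WT and 564, 762 and 259 in KO, and its call was lost without KO replicate 1 or 2 or WT replicate 1 (adjusted p up to 0.1). In 5 of 25 genes of the naive state and quiescence every KO library lay below every WT library, and in 2 above. Over all genes tested these shares were 7.78% and 10.8%. By limma 2 of the 25 rose and 1 fell, with a median difference of 0.01. There were 3 and 6 at an unadjusted p under 0.05, and 2 and 1 by edgeR. The calls were 5 higher and 3 lower without KO replicate 3, and 0 were higher when any 1 of the other 6 libraries was left out. Bach2, a repressor that holds T cells in the naive state, was 1670, 1434, 1582 and 1447 in WT replicates 1 to 4 and 4614, 3461 and 1686 in KO replicates 1 to 3. KO replicate 3 lay near WT, and the call of 0.97 ± 0.25 (limma, adjusted p = 0.0332) was lost in 6 of 7 fits that left out 1 library (adjusted p up to 0.158). Foxo1, which drives homing receptors, had the same order, 2388, 2517, 2232 and 2676 in WT and 6488, 4197 and 2762 in KO, and its call was also lost in 6 of 7 (up to 0.147). Immediate early and heat shock genes (17), which respond to handling, had 0 calls by limma and edgeR and 1 higher and 1 lower at an unadjusted p under 0.05, with 3 higher and 1 lower called without KO replicate 3.

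Lineage genes of T helper cells changed in both directions. Of 14 Th1 genes 4 rose and 2 fell (28.6% and 14.3%, against 4.76% and 2.08% of all genes tested), the falls being Eomes and Fasl. Il12rb1, a chain of the IL-12 receptor, was 27.4, 28.8, 18.1 and 15.1 in WT and 100.4, 52.7 and 82.5 in KO, a difference of 1.77 ± 0.41 (limma, adjusted p = 0.0205) that was lost without KO replicate 1 (adjusted p = 0.125). Of 10 Th2 genes 2 rose. Ccr4, a chemokine receptor of Th2 and regulatory T cells, was 1.25, 0, 1.81 and 11.3 in WT and 68.1, 34.7 and 30.9 in KO, a difference of 3.85 ± 0.92 (limma, adjusted p = 0.0249), and Gata3, the master factor of Th2 cells, was 543, 700, 558 and 613 in WT and 1414, 1102 and 729 in KO, a difference of 0.80 ± 0.19 (limma, adjusted p = 0.0266). Both calls were lost without KO replicate 1 or 2 and others (adjusted p up to 0.188 and 0.125). In the Th17 and Tfh list 1 of 10 fell, the SLAM adaptor gene Sh2d1a, at -0.57 ± 0.12 (limma, adjusted p = 0.0134), and that call was lost without KO replicate 1 or 2 (adjusted p up to 0.0749). No Th1 gene but Il18r1 (higher) and Fasl (lower), and no Th2 or Th17 and Tfh gene, was called without the 3 libraries with many genes detected.

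Of 33 cytokine receptor genes 9 rose and 0 fell (limma; 17 and 1 at an unadjusted p under 0.05, and 9 and 0 by edgeR). Without the 3 libraries with many genes detected 4 were called higher and 0 lower. Besides the IL-2 receptor chains, Il10ra, the receptor of IL-10, was 353, 369.9, 549 and 432 in WT replicates 1 to 4 and 986, 998 and 1063 in KO replicates 1 to 3, a difference of 1.27 ± 0.16 (limma, adjusted p = 0.000406). Csf2ra, a chain of the GM-CSF receptor, was 12.5, 64.4, 47.1 and 38.7 in WT replicates 1 to 4 and 244, 230.4 and 132 in KO replicates 1 to 3, with 2.44 ± 0.47 (limma, adjusted p = 0.0072). Ifnar1, a chain of the type I interferon receptor, was 3042, 3099, 2805 and 2878 in WT and 4287, 3943 and 4413 in KO, a small difference of 0.51 ± 0.10 (limma, adjusted p = 0.00851). Of 12 genes of cytokines and chemokines 5 rose and 0 fell (limma; 5 and 1 at an unadjusted p under 0.05, and 3 and 0 by edgeR). The count was 1 without KO replicate 2, 2 without KO replicate 1 or WT replicate 1, and 3 without KO replicate 3 or WT replicate 3 or 4. Lif, a cytokine of the IL-6 family, was 9.98, 9.59, 9.05 and 0.945 in WT replicates 1 to 4 and 65.7, 73.6 and 72.2 in KO replicates 1 to 3, a difference of 3.37 ± 0.67 (limma, adjusted p = 0.00865) lost without KO replicate 2 (adjusted p = 0.0601). Tgfb1, which encodes TGF-beta 1, was 254, 232, 212 and 216 in WT replicates 1 to 4 and 820.2, 683 and 347 in KO replicates 1 to 3, with 1.34 ± 0.24 (limma, adjusted p = 0.00533). None of the cytokine genes was called without the 3 libraries with many genes detected, and 2 were called higher with the cultured libraries kept for the spread.

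In the TNF superfamily 6 of 27 rose and 2 fell (22.2% and 7.41%, against 4.76% and 2.08% of all genes tested). Tnfrsf22, a decoy receptor of TRAIL, was 89.8, 90.4, 47.1 and 75.6 in WT and 292, 282 and 144 in KO, a difference of 1.63 ± 0.31 (limma, adjusted p = 0.00733), lost without KO replicate 2 (adjusted p = 0.0561), and Tnfrsf19 was 56.1, 30.1, 48.9 and 53.9 in WT and 2.48, 12.5 and 11.5 in KO and fell (-2.49 ± 0.58 (limma, adjusted p = 0.0215)), a call lost without KO replicate 1 or WT replicate 1, 3 or 4 (adjusted p up to 0.0728). The count of rises in this family was 3 without KO replicate 2. Of 30 apoptosis regulators 4 rose and 1 fell, and 2 rose without KO replicate 1 or 2 or WT replicate 1. Bcl2, which protects lymphocytes from death, was 7030, 6191, 5425 and 4409 in WT replicates 1 to 4 and 14870, 12749 and 12044 in KO replicates 1 to 3. All KO libraries were above WT by a difference of 1.21 ± 0.15 (limma, adjusted p = 0.000347). Birc3, an inhibitor of apoptosis, was 2384, 2803, 2511 and 2276 in WT and 4015, 3642 and 4305 in KO, with 0.68 ± 0.11 (limma, adjusted p = 0.00293). Of 24 SLAM, CD28 and inhibitory receptor genes 3 rose and 2 fell. Cd274, the ligand PD-L1, was 666, 1067, 749.6 and 716 in WT replicates 1 to 4 and 1704, 1489 and 1363 in KO replicates 1 to 3, a difference of 0.94 ± 0.16 (limma, adjusted p = 0.00365). Cd28, the main costimulatory receptor of naive cells, was 7725, 7952, 6849 and 8787 in WT and 5990, 5456 and 5879 in KO, a small fall of -0.43 ± 0.11 (limma, adjusted p = 0.0328) that was lost without any of 5 libraries (adjusted p up to 0.163). Among chemokine and related receptors 3 of 19 rose and 2 fell, with 1 rise without KO replicate 2 or WT replicate 1. Gpr183, an oxysterol receptor that positions lymphocytes, was 3264, 3293, 2776 and 3405 in WT replicates 1 to 4 and 1868, 1944 and 1813 in KO replicates 1 to 3, a difference of -0.76 ± 0.11 (limma, adjusted p = 0.00104). Of 35 T cell receptor signalling genes 2 rose and 1 fell, close to the shares of 4.76% and 2.08% over all genes. Without KO replicate 3 the calls were 8 higher and 2 lower, and without KO replicate 1 or 2 or WT replicate 1 there were 0. Of 26 adhesion and integrin genes 0 were called by limma and edgeR, with 7 higher and 5 lower at an unadjusted p under 0.05. Without KO replicate 3, 5 adhesion genes were called higher. Leaving out the 3 libraries with many genes detected, 1 TNF superfamily gene and 1 apoptosis regulator were called higher, and 1 of each lower. Of the chemokine and related receptors 0 were then called higher and 1 lower. No gene of the SLAM, CD28 and inhibitory receptor, T cell receptor signalling or adhesion lists was called in that fit.

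**Figure D3:**
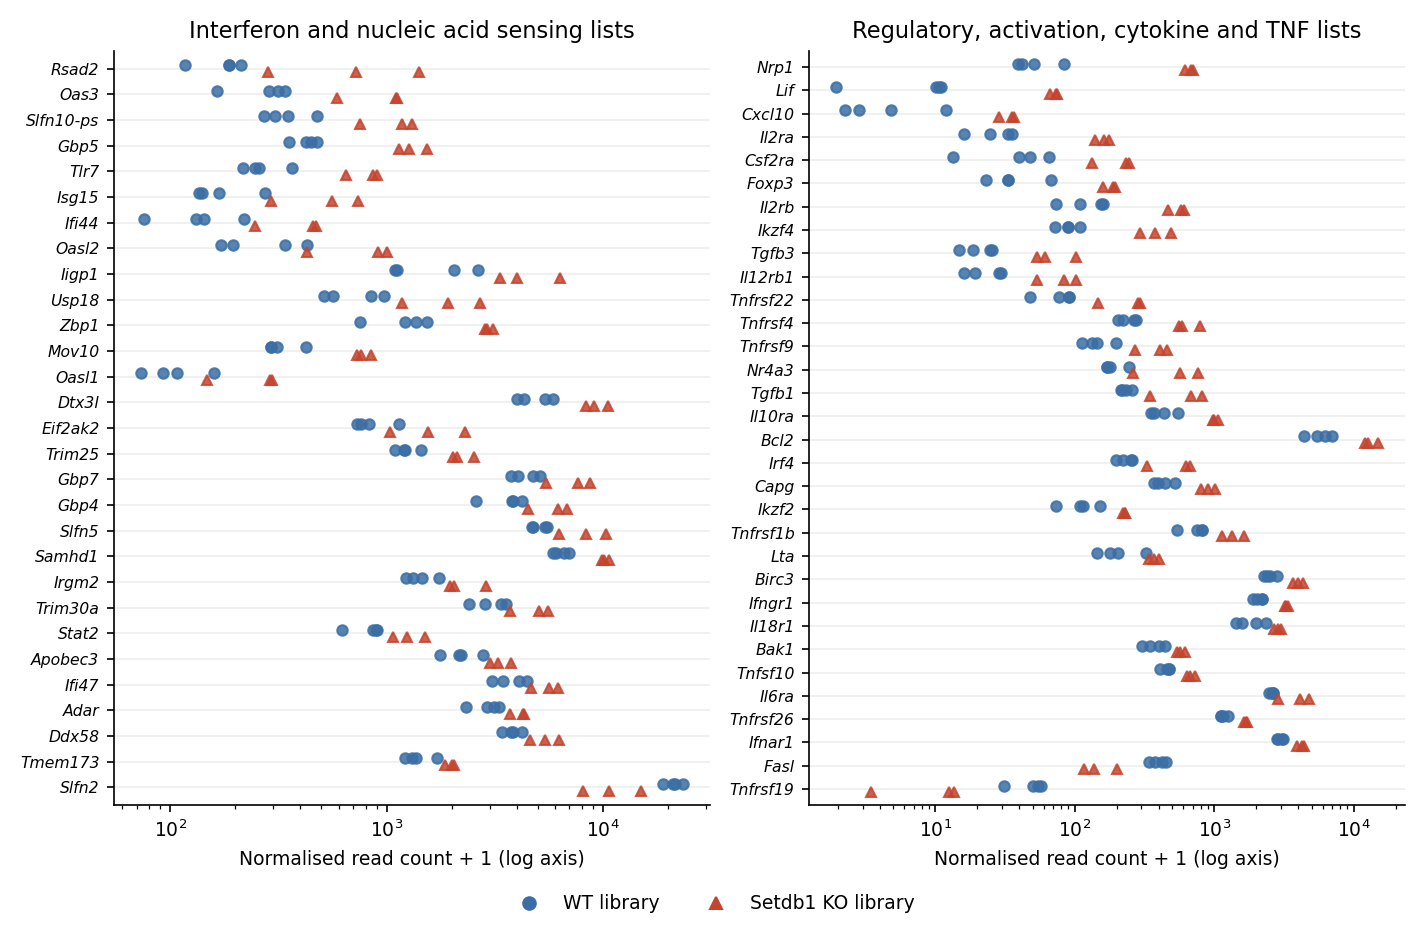
Normalised read count plus 1 (log axis) of every called member of the interferon and nucleic acid sensing lists (left) and of the regulatory, activation, cytokine, TNF and apoptosis lists (right), 1 point per naive library, circles for WT and triangles for KO. Slfn2, Fasl and Tnfrsf19 are the members with KO below WT, and the KO points of Rsad2 spread from 282.5 to 1407.

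Genes of dividing cells rose broadly. Of 36 mitosis genes 30 rose and 0 fell (limma; 33 and 0 at an unadjusted p under 0.05, and 30 and 0 by edgeR), with a median log2 difference of 2.38. Replication genes rose in 20 of 39 cases, repair genes in 13 of 38 and cyclin, E2F and Rb genes in 10 of 36, with 0 falls by limma or edgeR in each, and 0, 0 and 1 at an unadjusted p under 0.05. Ccna2, the cyclin of S and G2 phases, was 28.7, 5.48, 19.9 and 30.2 in WT replicates 1 to 4 and 278, 333 and 336 in KO replicates 1 to 3, a difference of 4.07 ± 0.48 (limma, adjusted p = 0.000247). The repair kinase gene Chek1 was 32.4, 19.2, 34.4 and 36.8 in WT and 124, 176 and 241 in KO, with 2.50 ± 0.34 (limma, adjusted p = 0.000764). The cyclin list also held Cdk6 and Mxd1. Cdk6, a kinase of G1 phase, was 223, 139.7, 179 and 155 in WT replicates 1 to 4 and 851, 881 and 566 in KO replicates 1 to 3, with 2.12 ± 0.21 (limma, adjusted p = 5.5e-05), and Mxd1, which opposes MYC, was 626, 525, 625 and 572 in WT replicates 1 to 4 and 2293, 2165 and 2436 in KO replicates 1 to 3, with 1.97 ± 0.12 (limma, adjusted p = 1.01e-06). KO replicate 1 was the lowest KO library in 23 of the 30 mitosis genes, 15 of the 20 replication genes and 11 of the 13 repair genes. Leaving out the 3 libraries with many genes detected, 18 mitosis, 5 replication, 7 repair and 4 cyclin list genes were called, all higher. The replication count was 9 without KO replicate 2, and the mitosis count 19 and the repair count 8.

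Histone genes rose with them, and these counts carry a doubt of their own, since near-identical copies can share reads. Of 71 tested 27 rose and 2 fell. Hist1h2af was 12.5, 35.6, 30.8 and 14.2 in WT replicates 1 to 4 and 486, 538 and 486 in KO replicates 1 to 3, a difference of 4.51 ± 0.36 (limma, adjusted p = 9.68e-06). The linker histone gene Hist1h1b was 32.4, 111, 92.3 and 56.7 in WT replicates 1 to 4 and 797, 927 and 1060 in KO replicates 1 to 3, with 3.78 ± 0.34 (limma, adjusted p = 2.35e-05). The falls were in histone genes that are expressed outside S phase: H1f0, a linker histone of resting cells, was 336, 244, 208 and 412 in WT and 193, 86.05 and 95.2 in KO, with -1.30 ± 0.30 (limma, adjusted p = 0.0211), a call lost without KO replicate 2 or WT replicate 1 or 4 (adjusted p up to 0.115), and H2afj differed by -0.48 ± 0.13 (limma, adjusted p = 0.041), named after its value was seen as the second of these falls. With the 3 libraries left out 10 histone genes were called, all higher, and without KO replicate 2, 16. Of 31 histone chaperones and chromatin remodellers 5 rose and 0 fell (limma; 12 and 0 at an unadjusted p under 0.05, and 6 and 0 by edgeR), among them H2afx, the histone phosphorylated at DNA breaks, at 1.23 ± 0.20 (limma, adjusted p = 0.00291), and Asf1b, a chaperone of H3 and H4, at 1.11 ± 0.23 (limma, adjusted p = 0.0106), a call lost without KO replicate 2 (adjusted p = 0.0538). Of 23 p53 targets 2 rose (8.7%, against 4.76% of all genes tested) and 0 fell (limma; 3 and 3 at an unadjusted p under 0.05, and 1 and 0 by edgeR), the larger being Ccnd2, cyclin D2, which was 8849, 9917, 8320 and 8601 in WT and 18980, 20710 and 14325 in KO (1.00 ± 0.13 (limma, adjusted p = 0.00063)). No histone chaperone, chromatin remodeller or p53 target was called without the 3 libraries with many genes detected.

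Genes of the ribosome went the other way. Of 84 cytosolic ribosomal protein genes 21 fell and 0 rose by limma, with a median log2 difference of -0.41. At an unadjusted p under 0.05 there were 47 lower and 1 higher, and by edgeR 22 and 0. In 40 of the 84 every KO library lay below every WT library, against 7.78% of all genes tested. Rps21 was 12930, 10990, 9699 and 8035 in WT replicates 1 to 4 and 5080, 3534 and 4878 in KO replicates 1 to 3, a difference of -1.21 ± 0.17 (limma, adjusted p = 0.000792). Rpl12 was 1541, 1859, 1622 and 2070 in WT replicates 1 to 4 and 866, 891 and 916 in KO replicates 1 to 3, with -0.98 ± 0.13 (limma, adjusted p = 0.000464). Rps10 and Rpl22 fell by 1.01 and 0.86. Their summed share of all reads was 3.78%, 4.11%, 3.59% and 3.00% in WT replicates 1 to 4 and 2.58%, 2.47% and 2.59% in KO replicates 1 to 3, and the groups did not overlap. The count was 9 without KO replicate 1, 6 without KO replicate 2 and 13 without WT replicate 1, 2 or 3. Without the 3 libraries with many genes detected 1 was called, and 14 with the cultured libraries kept for the spread. Of 80 mitochondrial ribosomal protein genes 2 fell and 0 rose (19 and 1 at an unadjusted p under 0.05). That count was 13 without KO replicate 3, 1 without KO replicate 1 and 0 without KO replicate 2 or WT replicate 1, 2 or 3. Further, of 85 genes of oxidative phosphorylation 0 were called by limma and edgeR (14 lower and 2 higher at an unadjusted p under 0.05), with 7 lower and 1 higher without KO replicate 3 and 3 lower without WT replicate 4. Ribosomal protein genes have many processed pseudogenes, so single members are uncertain.

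Single members of some immune gene families also fell. Of 22 T cell receptor beta variable genes 3 fell and 0 rose (limma; 8 and 0 at an unadjusted p under 0.05, and 3 and 0 by edgeR). Trbv15 was 1301, 1237, 1182 and 1332 in WT replicates 1 to 4 and 497, 451 and 557 in KO replicates 1 to 3, a difference of -1.33 ± 0.12 (limma, adjusted p = 2.94e-05). Trbv12-1 was 257, 337, 315 and 371 in WT replicates 1 to 4 and 116, 87.4 and 123 in KO replicates 1 to 3, with -1.55 ± 0.20 (limma, adjusted p = 0.000544), and Trbv16 was 1476, 1696, 1512 and 1688 in WT and 733, 709 and 1042 in KO, with -0.96 ± 0.14 (limma, adjusted p = 0.00149). Trbv15 and Trbv16 lie 27144 and 37724 bp from Trbv12-1, and each of the 3 was called in all 7 fits that left out 1 library. Without KO replicate 3, 6 of the family were called lower. Trbv13-1, Trbv13-2 and Trbv13-3, named here after their values were seen, differed by 0.16, 0.20 and -0.05 and did not pass. None of 62 alpha and delta variable genes was called by limma or edgeR, with 6 higher and 4 lower at an unadjusted p under 0.05. Of 8 GIMAP genes, which encode GTPases of lymphocyte survival, 3 fell and 0 rose (limma; 3 and 0 at an unadjusted p under 0.05). Gimap3 was 7770, 7576, 6493 and 6858 in WT replicates 1 to 4 and 4967, 4273 and 4752 in KO replicates 1 to 3, with -0.62 ± 0.11 (limma, adjusted p = 0.00439), and calls of Gimap9 and Gimap1 were lost without KO replicate 1 or 2 or WT replicate 1 or 3 (adjusted p up to 0.122 and 0.161). Of 25 MHC genes 3 fell and 22 were not called, with a median difference of 0.15: H2-Ob, H2-K2 at -1.04 ± 0.19 (limma, adjusted p = 0.00454), and H2-Q10, which was 53.6, 76.7, 21.7 and 16.1 in WT and 6.195, 4.16 and 4.59 in KO and lost its call without KO replicate 1 or 2 or WT replicate 1 or 2 (adjusted p up to 0.114). Without the 3 libraries with many genes detected no GIMAP or MHC gene was called. MHC class I genes are close copies of each other, and reads may be split between them.

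The KRAB zinc finger genes, whose products guide SETDB1 to DNA, are among the numbered zinc finger genes, of which 13 of 331 rose and 4 fell, shares below those of all genes. With 1 library left out these counts ran from 4 higher and 1 lower (without KO replicate 2) to 20 and 11 (without KO replicate 3), and they were 5 and 2 without KO replicate 1 or WT replicate 1. Without WT replicate 2, 3 or 4 they were 7 or 8 higher and 2 or 3 lower, and without the 3 libraries with many genes detected 3 and 0. Zfp53 was 1168, 1188, 1356 and 1182 in WT replicates 1 to 4 and 5975, 6143 and 6207 in KO replicates 1 to 3, with 2.32 ± 0.10 (limma, adjusted p = 7.16e-08). Zfp365, a protein of centrosomes and genome stability, was 173, 185, 141 and 203 in WT replicates 1 to 4 and 1037, 819 and 1062 in KO replicates 1 to 3, with 2.46 ± 0.17 (limma, adjusted p = 3.47e-06). Both genes overlapped a WT H3K9me3 region, as did 16.7% of all genes tested. Zfp52, named after its value was seen, was 447, 303, 434 and 361 in WT and 673, 833 and 929.8 in KO, with 1.07 ± 0.17 (limma, adjusted p = 0.00237). The transcription factors of blood cell lineages held 7 rises and 2 falls among 30 (23.3% and 6.67%, against 4.76% and 2.08% of all genes tested). Gata1, the master factor of red cells and platelets, was 147, 115, 172 and 118 in WT replicates 1 to 4 and 316, 330.3 and 338 in KO replicates 1 to 3, with 1.26 ± 0.20 (limma, adjusted p = 0.00197), while the summed level of 7 erythroid and platelet markers was 37.8 to 79.7 in WT and 64.4 to 115 in KO. Ikzf3, the Ikaros family factor Aiolos, was 1274, 1544, 1401 and 1260 in WT and 3906, 2987 and 1806 in KO, with 1.02 ± 0.20 (limma, adjusted p = 0.0089), lost without KO replicate 2 (adjusted p = 0.0544). Id3, which inhibits E proteins, was 538, 637, 583 and 654 in WT and 250.3, 318 and 399 in KO and fell (-0.92 ± 0.17 (limma, adjusted p = 0.0058)). Without KO replicate 3, 14 of this list were called higher, and without KO replicate 1 or 2, 3 and 2. Without the 3 libraries with many genes detected 2 were called higher and 1 lower.

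Metabolic lists held few calls. Of 28 genes of cholesterol and fatty acid synthesis 4 rose and 0 fell (limma; 9 and 2 at an unadjusted p under 0.05, and 2 and 0 by edgeR), and 2 rose without KO replicate 1 or 2 or WT replicate 1, 2 or 3. Scd2, a desaturase, was 1680, 942, 1142 and 1480 in WT replicates 1 to 4 and 3301, 2445 and 3337 in KO replicates 1 to 3, with 1.23 ± 0.19 (limma, adjusted p = 0.00154), and Elovl6, which lengthens fatty acids, was 403, 311, 413 and 339 in WT replicates 1 to 4 and 684, 751 and 809 in KO replicates 1 to 3, with 1.03 ± 0.15 (limma, adjusted p = 0.00113). Both were called without the 3 libraries with many genes detected. Of 26 genes of serine, one-carbon and amino acid supply 3 rose and 0 fell (limma; 8 and 0 at an unadjusted p under 0.05, and 3 and 0 by edgeR), none of them without KO replicate 1. Glycolysis genes (22) and genes of the unfolded protein response (18) had 0 calls by limma and edgeR, with 2 higher and 4 lower, and 0 higher and 1 lower, at an unadjusted p under 0.05. Without KO replicate 3, 1 and 3 of them were called lower. Of 218 solute carriers 8 rose and 1 fell, shares below those of all genes, and 23 were called higher without KO replicate 3. Slc35f2 was 141, 148, 136 and 144 in WT replicates 1 to 4 and 399, 414 and 529.7 in KO replicates 1 to 3, with 1.64 ± 0.17 (limma, adjusted p = 0.000112). Slc12a7, a potassium and chloride cotransporter, was 2446, 2641, 2318 and 2680 in WT replicates 1 to 4 and 8303, 7328 and 4929 in KO replicates 1 to 3, with 1.41 ± 0.16 (limma, adjusted p = 0.000143). Of 18 cytochrome P450 genes 1 rose, a share near that of all genes, and of 9 glutathione transferases 2 rose. Cyp2s1, the cytochrome P450, was 125, 314, 172 and 157 in WT replicates 1 to 4 and 868, 1114 and 885 in KO replicates 1 to 3, with 2.39 ± 0.26 (limma, adjusted p = 0.000114), and Gstt2, a glutathione transferase, was 116, 121, 152 and 191 in WT replicates 1 to 4 and 683, 461 and 664 in KO replicates 1 to 3, with 2.06 ± 0.22 (limma, adjusted p = 0.000103).

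**Figure D4:**
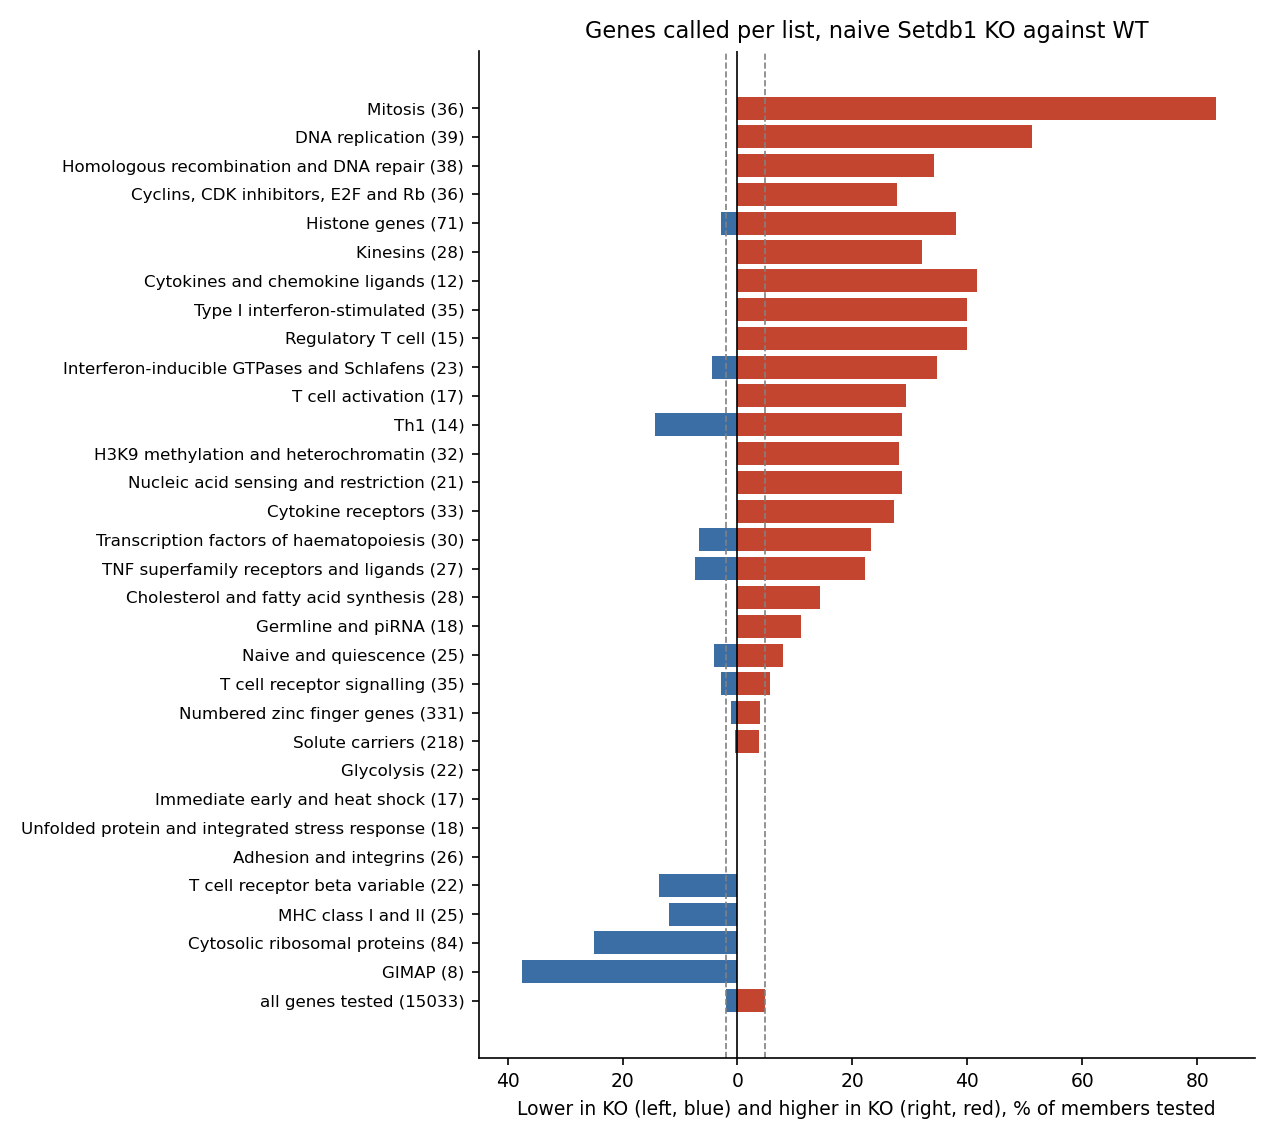
Share of tested members called lower (left of 0, blue) and higher (right of 0, red) in KO for selected lists, with the number of members tested in brackets and dashed lines at the shares over all 15033 genes (2.08% lower, 4.76% higher). Mitosis genes reach furthest to the right (30 of 36), and GIMAP (3 of 8) and cytosolic ribosomal protein genes (21 of 84) furthest to the left.

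Some genes called higher lay within 100 kb of a named gene. Most neighbours within that distance were not called, and their share was not set against that of all genes tested. Snai3 lay 5336 bp from Rnf166, called at 0.47 (limma, adjusted p = 0.0342). Esco2 lay 1205 bp from Pbk, a mitotic kinase gene called at 4.56 (limma, adjusted p = 0.00828). Tubb3 lay 20941 bp from Def8, which was 277, 193, 206 and 189 in WT and 946, 683 and 609.9 in KO (1.77 ± 0.19 (limma, adjusted p = 0.000135)), while Tcf25, 7379 bp from Tubb3, differed by 0.12 (limma, adjusted p = 0.60). In the pair of IgG receptors, Fcgr3 fell and its neighbour Fcgr2b, the inhibitory receptor 75098 bp away, was 22.4, 1.37, 23.5 and 1.89 in WT and 124, 124 and 108 in KO and rose by 3.91 ± 0.80 (limma, adjusted p = 0.0106), a call lost without KO replicate 2 (adjusted p = 0.0601). Gata1 lay 84508 bp from Suv39h1. The labels do not say whether counting used strand. Tubb3, Snai3, Osgin1 and Shcbp1, among the largest rises, were on chromosome 8, where 4.58% of tested genes were called higher. Chromosome Y aside, where none was called higher, that share ran from 2.93% on chromosome 14 to 8.44% on chromosome 13, where 25 of 48 such genes were histone genes and the share was 4.43% without them. Chromosome 13 fell to 5.49% without KO replicate 1, 4.17% without KO replicate 2 and 2.38% without the 3 libraries with many genes detected.

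The mark that SETDB1 places was mapped in the same naive cells, with 1 deposited list of regions per genotype, from 2 WT samples and 1 KO sample, and therefore no replicate check. The deposited WT list held 9659 H3K9me3 regions over 13.7 Mb and the KO list 1163 over 2.29 Mb. Of genes called higher 247 of 711 with a position (34.7%, 95% Wilson interval 31.3 to 38.3) had a WT region within 10 kb, against 28.7% of all 14330 tested. The share was 33.2% (28.2 to 38.7) for genes called lower. For the 95 genes that rose at least 8-fold it was 17.9% (11.5 to 26.8), below that of all genes tested. These intervals cover counting error only. Without the 3 libraries with many genes detected fewer genes were called higher, 155, and their share was 27.7%. No interval was computed for it, and no share over the 13208 genes of that fit. KO regions lay within 10 kb of 2.25% of higher, 2.93% of lower and 2.87% of all genes. Of the 15 largest rises a WT region overlapped 2, Tdrd9 and Cacna1b. Of the 15 largest falls it overlapped 6, Pde2a, Prss12, Epas1, Fcgr3, Rnf43 and H2-Ob, and Fcgr3 and Rnf43 also overlapped a KO region. Over all genes tested a WT region overlapped 16.7% and a KO region 1.9%. Setdb1 itself overlapped a WT region. Over promoter windows a WT region was found in 4 of 530 higher (0.755%), 0 of 185 lower and 32 of 10173 genes tested (0.315%). The 4 were Stag3, Ptprs, Trerf1 and Rims3, named here because of this overlap. Ptprs, a receptor tyrosine phosphatase, was 78.6, 103, 74.2 and 86.9 in WT replicates 1 to 4 and 534, 464 and 408 in KO replicates 1 to 3, a log2 difference of 2.44 ± 0.20 (limma, adjusted p = 1.06e-05). Its window (chr17:56476431-56476730, minus strand), with 21 CG pairs in capitals, lay inside a WT region from 56476351 to 56477450, and the nearest KO region was 17121 bp away.
Ptprs: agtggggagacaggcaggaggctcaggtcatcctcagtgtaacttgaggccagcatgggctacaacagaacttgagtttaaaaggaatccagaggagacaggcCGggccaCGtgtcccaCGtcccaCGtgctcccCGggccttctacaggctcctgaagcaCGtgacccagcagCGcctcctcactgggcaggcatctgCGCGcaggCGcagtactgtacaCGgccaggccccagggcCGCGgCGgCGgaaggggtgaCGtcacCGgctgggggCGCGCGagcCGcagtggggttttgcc

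The same genotypes after culture gave a second measurement, in libraries the naive comparison did not use. In Th2 cells Setdb1 itself was 8070 to 9044 in libraries labelled KO against 693.6 to 933.4 in WT, and in Th2-Th1 cells 5430 to 7389 against 1594 and 1611, opposite to naive cells and to the label. Total reads of the Th2 KO libraries were 36.261 to 44.719 M and of the Th2 WT libraries 10.141 to 13.258 M, so values near 0 are finer in KO. Of genes higher in naive KO cells 63.6% had every Th2 KO library above every WT library, against 36.6% of all genes tested, and 129 of the 715 lay the opposite way, against 29.7% of all genes. For genes lower in naive KO cells the share below was 58.5% against 29.7%, and the opposite share 21.1% against 36.6%. In Th2-Th1 cells the shares in the naive direction were 53.3% against 32.7% and 58.8% against 28.4%, and the opposite shares 18.9% against 28.4% and 16.9% against 32.7%. If the Th2 or Th2-Th1 labels were exchanged, these same and opposite shares would trade places. Outside the 4 cell cycle lists and the histone genes the first share was 62.0%. Without the 3 libraries with many genes detected it was 71.0%, and no share over all genes of that fit is given.

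Tubb3 was 0 to 7.42 in Th2 WT and 115 to 161 in Th2 KO, and 2.32 and 18.9 against 130.2 to 232 in Th2-Th1 cells, so the rise was present in all 3 conditions. Atf7ip also stayed higher, 633 to 985 in Th2 WT against 2181 to 2636 in Th2 KO. Rps21 and Trbv15 lay lower in every KO library of both cultures. Nrp1 was different: 425 to 659 in Th2 WT against 258 to 424 in KO, and 14370 and 15342 in Th2-Th1 WT against 2195 to 5300 in KO, below WT in both cultures although far above it in naive cells. Foxp3 was 4.03 to 42.4 in Th2 WT and 2.38 to 4.93 in KO, with overlap. Pde2a and Kcnj16, among the largest falls of naive cells, were at most 34.3 and 0.501 in every cultured library. Of the 15 largest rises 12 were also higher in every Th2 KO library, 7 in every Th2-Th1 KO library and 6 in both. Over all genes tested 36.6% were higher in every Th2 KO library and 32.7% in every Th2-Th1 KO library. Of the 15 largest falls 7 were lower in every Th2 KO library, 5 in every Th2-Th1 KO library and 4 in both. The shares over all genes were 29.7% in Th2 and 28.4% in Th2-Th1 cells. Opposite to naive cells lay 2 of the rises and 3 of the falls in Th2-Th1 cells, and 0 and 0 in Th2 cells. Whether the naive and cultured differences differ from each other was not tested here.

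**Figure D5:**
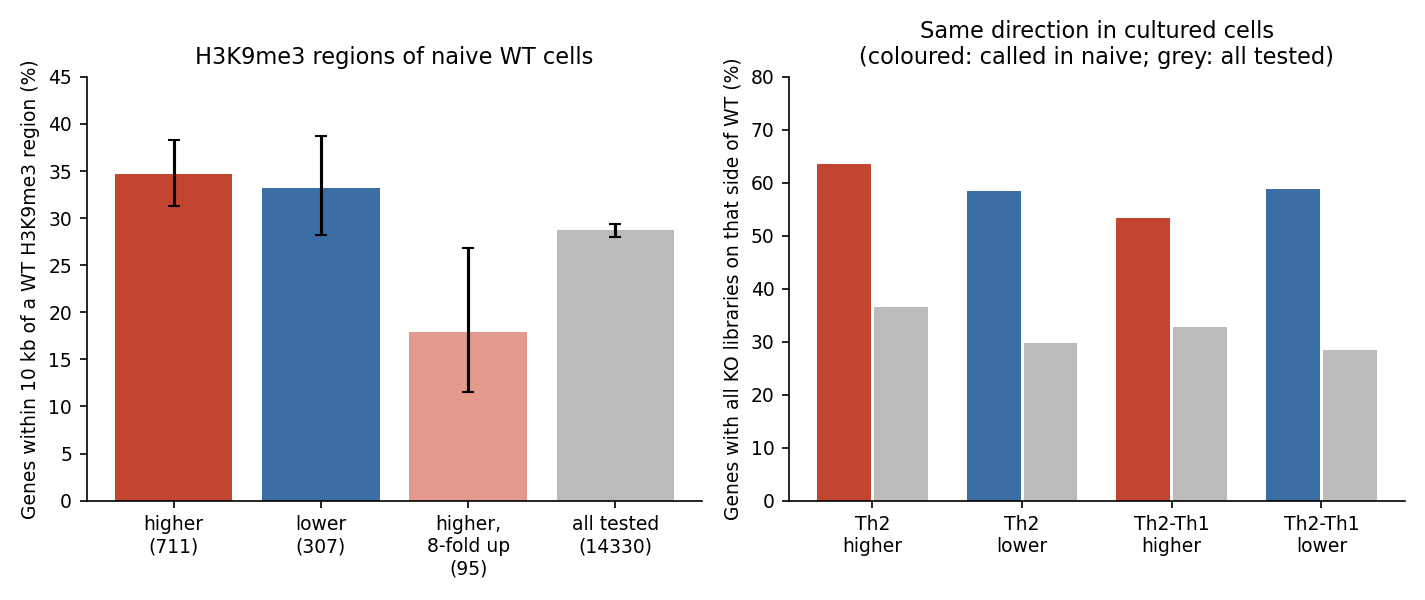
Left, share of genes with an H3K9me3 region of naive WT cells within 10 kb, for genes called higher, lower, higher by at least 8-fold and all tested, with 95% Wilson intervals and the number of genes in brackets. Right, share of genes called in naive cells whose cultured KO libraries all lie on the same side of WT (coloured), beside the share of all genes tested (grey). The 8-fold group has the lowest bar on the left (17.9%), and every coloured bar on the right is above its grey one.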

How the data were processed

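RNA of 7 naive libraries (4 WT, 3 KO) was compared. Per the labels' protocols RNA was extracted with RNeasy Micro kits and sequenced after TruSeq preparation. The submitters' processing notes name cutadapt 1.3, TopHat2 2.0.5, BWA 0.7.10, MACS2 2.1.0, DESeq and the mm10 build, with no settings. The deposited table holds the authors' signal per gene, reads divided by a size factor. It repeats 39179 genes, and the first copy was used. Multiplying by a factor equal to the median of ratios over 11929 genes gave whole reads for 100% of values within 0.01. H3K9me3 lists hold 1 score per region as deposited by the authors, with no caller or scale named in the labels. The scores were not used beyond the positions.

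The 15033 genes that reached 10 in 2 or more naive libraries were tested on log2(value + 1) with limma 3.58.1 (trend, two-sided, Benjamini-Hochberg adjustment, 5 residual degrees of freedom, R 4.3.3). Alternatives used edgeR 4.0.16 and DESeq2 1.42.0 on recovered reads. On simulated data for this comparison, run on 15033 genes, 26%, 72%, 96% and 100% of genes changed by 1.5, 2, 4 and 8-fold were recovered, and 6 of 14833 unchanged genes were called. The changed genes were drawn from those with a mean of at least 50. Counts were drawn independently for each library, with no surplus of genes shared by 3 libraries. These rates may therefore not hold for the real libraries. Gene positions came from RefSeq (GRCm38.p6) for 95.3% of tested genes, and promoter windows for 67.7%. Total reads were 10.019 to 18.511 M, and no interval covers more than counting error.

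Named were Setdb1 and Suv39h1, the 15 largest called differences each way (mean at least 50, no overlap, not predicted), up to 4 called members per list with the largest difference (the largest member where none was called), and some of the called neighbours within 100 kb. Named outside this rule, after their values were seen, were Ccna2, Cdk6, Mxd1, H1f0, H2afj, Id3, Ikzf3, Ifnar1, Il10ra, Morc2a, Ptprs, Zbp1 and Zfp52, the marker genes, and members given only by name or range. The members and lists were chosen with earlier results of these data known. The samples were not treated as paired by replicate number in the main fit. Results of a few genes are not reported here.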

Additional observations from a re-analysis of the deposited data

Results flagged for a closer look

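In 13 of 169 named genes with 4 WT libraries, 1 library stood apart from the other 3 by a gap test that chance alone passes in about 1 in 20 genes. WT replicate 3, a library with many genes detected, was the one in 7 of the 13. It was highest for Mov10 (421.9 against 291 to 311.8), Aurkb (12.67 against 0 to 0.945), Kif4 (39.83 against 1.25 to 5.67), Lgals3 (7.242 against 0), Zfp53 (1356 against 1168 to 1188), Hist1h3g (28.97 against 0 to 4.11) and Gimap1 (9296 against 7718 to 7953). WT replicate 2 was highest for Sema4d (2506), Nr4a3 (243.8) and the immunoglobulin gene Ighm (6785). WT replicate 4 was lowest for Lif (0.9447) and Gimap9 (7641) and highest for Ccr4 (11.34).

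Some genes had every naive KO library on one side of WT and every KO library of a culture on the other, and these differences between conditions were not tested. Of those listed, Setdb1 alone did so in both cultures, with a log2 difference of -0.38 in naive cells, 3.37 in Th2 cells and 1.95 in Th2-Th1 cells. The others did so in Th2-Th1 cells only. Klrd1 was -3.13 in naive cells and 4.77 in Th2-Th1 cells, and Fcgr3 was -2.03 and 1.45, while in Th2 cells their groups overlapped (0.19 and -0.25). Rnf43 was -1.81 in naive, 0.65 in Th2-Th1 and -1.82 in Th2 cells, where it went the same way as in naive cells. Hist1h2af was 4.51 in naive, -1.22 in Th2-Th1 and 1.44 in Th2 cells. Clspn was 4.39, -0.57 and 2.18. For these 2 genes, too, every Th2 KO library lay on the same side of WT as in naive cells.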

How the results depend on the processing

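Against 1028 genes called, 1941 were called with all 18 libraries in the fit, 1649 by DESeq2, 2291 with library weights, 178 without the 3 libraries with many genes detected, and 425 to 1979 with 1 naive library left out. With all 18 libraries but without those 3 the count was 890, and the other alternatives gave 940 to 1177. The share of higher genes near a WT H3K9me3 region was 34.7%, against 28.7% of all genes tested. It was 27.7% without the 3 libraries and 33.1% to 37.5% with 1 library left out. For direct overlap it was 23.3% against 16.7% of all genes tested, and within 50 kb 61.9% against 56.2%. The share also higher in Th2 cells, 63.6%, was 71.0% without the 3 libraries, 58.2% with all 18 libraries in the fit without those 3, 39.4% for a mean log2 difference of at least 1, and 62.3% to 66.6% with 1 library left out. The share called higher on chromosome 13, 8.44%, was 12.7% with all 18 libraries, 11.9% with all 18 without the 3, 12.8% with library weights, 4.66% with no filter on low values, 2.38% without the 3 libraries, and 4.17% to 11.0% with 1 library left out. The cause of these moves was not tested. Of 168 named calls 69 passed without the 3 libraries, 158 with all 18 libraries, 151 by edgeR, 168 by DESeq2 and 109 to 158 with 1 library left out. Replicate numbers are shared between genotypes. Deviations of same-numbered libraries from their group means correlated at 0.023, -0.458 and -0.448. The highest correlation, 0.552, joined KO replicate 2 and WT replicate 3, both with many genes detected. These values therefore cannot decide whether the numbers mark pairs. With the replicate block 1142 genes were called, 157 of the 168 named calls passed, and the shares were 35.9%, 63.0% and 7.91%. Alternatives with the cultured libraries but without the 3 were chosen after the data were seen.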
